A study of Mus musculus with 6 samples.

Results

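The genes described here are markers of Kupffer cells, the resident macrophages of the liver, and genes of macrophage activation. They were given as 43 gene names, and a member's value came from the probe sets that the platform annotation assigns to that symbol alone. Where several matched, the brightest by its mean over the 6 arrays was taken. In this way 41 of the 43 names had a value, among 18193 genes on the array, and the names Slc40a1l and Ccl24r matched no probe set. The members fell into 4 classes: 6 measured Kupffer identity genes, 20 general macrophage genes, 12 genes of alternative activation and 3 inflammatory genes.

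Liver RNA was hybridised to Affymetrix mouse whole-genome expression arrays, 1 array for each of 6 male mice on a C57BL6/J background. Retnla-Tg mice, 3 in number and called Tg 5, Tg 6 and Tg 7 here, carried Retnla as a transgene. The Retnla-non-Tg group was made up of 3 mice without it, called non-Tg 1, non-Tg 2 and non-Tg 3. All mice were 3 months old and had been moved at 8 weeks of age to a high-fat diet with 21% fat and 0.15% cholesterol, on which they stayed for 4 weeks. No group on a standard diet was analysed here, and no source used here names the promoter that drives the transgene or the number of founder lines.

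Kupffer cells line the liver sinusoids, take up particles, complement-coated microbes and ageing erythrocytes from the blood, and carry receptors such as CLEC4F, VSIG4, MARCO and TIMD4. Macrophages exposed to IL-4 or IL-13 signal through the IL-4 receptor alpha chain and STAT6 and make a set of products known as alternative activation, of which the secreted resistin-like molecule RELM alpha, encoded by Retnla, is a classic mouse example. Bacterial products and interferon gamma drive the opposite, inflammatory state, with TNF, IL-1 beta and inducible nitric oxide synthase among its products. The comparison asks how far these genes differ in the liver when Retnla is expressed from a transgene.

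The 6 arrays had median log2 signals from 6.49 to 6.74 and were scaled to a common trimmed mean before deposit. A filter kept probe sets with a mean log2 signal above 5.63, the 40th percentile, and left 12705 genes for the test, 33 of the 41 members among them. The 8 members below it were Itgam, Gpnmb, Retnlb, Retn, Chil3, Irf4, Tnf and Nos2, and their values come from a fit without the filter. Hepatocyte markers were bright on every array, and Alb, which encodes albumin, had a mean log2 signal of 16.28 in Tg against 16.32 in non-Tg mice. All 6 Kupffer identity genes lay above the filter. The arrays also fell into 2 sets by the signal of bioC, a bacterial control transcript added before hybridisation. Non-Tg 1, Tg 5 and Tg 6 had bioC log2 signals from 9.57 to 9.71, and non-Tg 2, non-Tg 3 and Tg 7 from 10.98 to 11.27. Tests are 2-sided limma fits with Benjamini-Hochberg adjustment at a threshold of 0.05.

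Retnla, the transgene that defines the groups, was the sole member that passed, and the remaining 40 measured members gave no call. The background for that count is 0.0157% of the 12705 genes tested, that is 2 genes, and 0.011% when all 18193 genes enter the fit. With no adjustment, limma p-values under 0.05 again held 1 member, Retnla, against 6.05% of genes tested. Of the 41 measured members, 34 had a higher mean in Tg livers, with a median log2 difference of 0.24, where 53.4% of the 18193 genes were higher and the median was 0.03. Groups did not overlap for 1 of 41 members, again Retnla, against 11.2% of all genes. The members vary together between mice, as described below, so these counts are not counts of independent genes.

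The Retnla log2 signal was 6.03, 7.41 and 6.48 in non-Tg 1, non-Tg 2 and non-Tg 3, and 16.04, 15.91 and 16.04 in Tg 5, Tg 6 and Tg 7. The non-Tg values sat around the array medians, between the 39.6th and the 62.6th percentile of all probe sets, and the Tg values above the 99.9th percentile of each array. The log2 difference was 9.36 ± 0.28 (SE; 95% confidence interval 8.72 to 9.99; limma adjusted p = 4.07e-07). An exact permutation test of the 3 mice against 3 gave 0.1, the smallest p this design allows. Without detection calls the non-Tg level may be background, which sets the size of the difference: adding 64 before taking logs gave 8.62. The SD among the 3 Tg mice was 0.07, at a level near the top of the scale, where Alb also had an SD of 0.06 in Tg livers.

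The promoter of the endogenous Retnla gene is shown because Retnla carries the one call among the members. It holds the motif that STAT6 is known to bind, TTC and GAA with 4 free bases between them, and the PU box GAGGAA, the core known for PU.1, the macrophage transcription factor encoded by Spi1. The 250 bases before the RefSeq start (GRCm38.p6, chr16:48842359-48842608, plus strand) are printed 5′ to 3′ with both motifs in capitals.
Retnla: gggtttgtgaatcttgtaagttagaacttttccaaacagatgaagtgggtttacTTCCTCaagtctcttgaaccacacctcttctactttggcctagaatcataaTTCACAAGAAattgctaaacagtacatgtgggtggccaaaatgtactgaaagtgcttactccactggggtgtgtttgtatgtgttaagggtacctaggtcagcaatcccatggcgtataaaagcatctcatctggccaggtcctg
The STAT6 motif lay at -145 to -136 from the start and the PU box, on the minus strand, at -196 to -191. Both motifs were searched on both strands. The STAT6 motif was found in 5.85% and GAGGAA in 23.3% of 32851 RefSeq promoters of the same length. Of the 41 members 30 had an entry, with 32 promoters in all. It was present for 3 of these 30 genes (Cd5l, Clec7a and Retnla) and the PU box for 17. The expression data do not tell transcripts of the endogenous gene from those of the transgene.

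The other resistin family members were dim. Retn encodes resistin, an adipocyte product in mice, and its log2 signal was 3.56, 7.08 and 4.24 in non-Tg and 6.82, 5.10 and 6.36 in Tg livers. Retnlb, known as a goblet cell product of the gut, was at 3.37, 1.73 and 2.28 in non-Tg and 4.69, 2.41 and 1.93 in Tg livers. In both genes the groups overlapped. The difference was 1.13 ± 0.96 (SE; limma adjusted p = 0.878) for Retn and 0.55 ± 1.09 (SE; limma adjusted p = 0.950) for Retnlb, both over all 18193 genes. Adipocyte markers, which a piece of liver with attached fat could hold, had a median log2 difference of -0.13 over 5 tested genes, 2 higher and 3 lower. The part of attached fat in the Retn values was not tested.

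**Figure D1:**
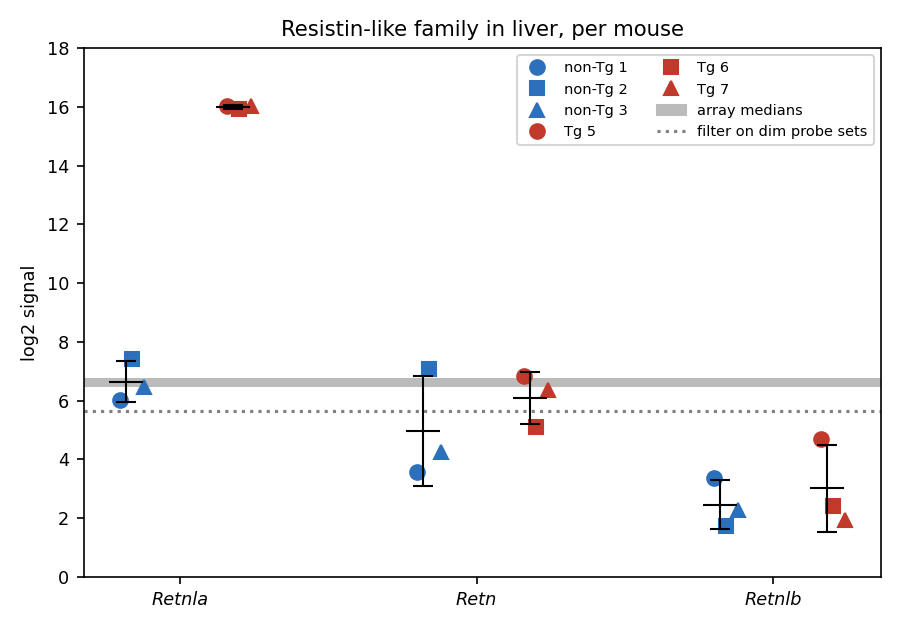
Log2 signal of Retnla, Retn and Retnlb on the 6 arrays (points, 1 per mouse; bars, mean ± SD of 3 mice per group). Retnla stands at 15.91 to 16.04 in Tg and 6.03 to 7.41 in non-Tg livers, while the groups overlap for Retn and Retnlb; the grey band spans the array medians and the dotted line marks the filter.

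Genes that mark Kupffer cell identity did not pass, and their differences were small beside the spread among Tg mice. All 6 had a slightly higher mean in Tg livers, with a median log2 difference of 0.10. Clec4f encodes a C-type lectin restricted to Kupffer cells in rodents. Its log2 signal was 11.60, 11.67 and 11.76 in non-Tg and 11.66, 12.39 and 11.33 in Tg livers, so that Tg 6 was the highest and Tg 7 the lowest of the 6 mice. The difference was 0.12 ± 0.23 (SE; 95% confidence interval -0.39 to 0.63; limma adjusted p = 0.933). Vsig4, the complement receptor of the immunoglobulin family, followed the same order, with 11.55, 11.64 and 11.88 in non-Tg and 11.62, 12.28 and 11.32 in Tg livers. Cd5l encodes a secreted scavenger receptor protein of tissue macrophages and stood at 12.73, 12.59 and 12.86 in non-Tg and at 12.63, 13.68 and 12.09 in Tg livers. Differences for these genes were 0.05 ± 0.22 for Vsig4 and 0.08 ± 0.32 for Cd5l (SE; limma adjusted p = 0.974 for each).

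Marco, a scavenger receptor for bacteria and particles, varied most among the Kupffer genes. It was at 7.39, 7.41 and 7.78 in non-Tg and 8.32, 10.06 and 6.18 in Tg livers, an SD of 1.94 among Tg and 0.22 among non-Tg mice. Tg 5 and Tg 6 lay above and Tg 7 below every non-Tg value, and the difference was 0.66 ± 0.76 (SE; limma adjusted p = 0.880). Timd4, a receptor for phosphatidylserine on dying cells that marks long-lived resident Kupffer cells, was at 7.67, 7.87 and 7.28 in non-Tg and 7.68, 8.88 and 7.59 in Tg livers (difference 0.45 ± 0.36, SE; limma adjusted p = 0.847). Folr2, a folate receptor of resident macrophages, differed by 0.06 ± 0.21 (SE; limma adjusted p = 0.970), and Tg 6 was again its highest mouse, at 9.44 against 9.42 in non-Tg 3.

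General macrophage genes showed the same pattern at larger size. Of 20 measured genes, 18 had a higher mean in Tg livers, with a median log2 difference of 0.28, and 0 passed. Adgre1, which encodes an adhesion G protein-coupled receptor long used to mark mouse macrophages, had the smallest limma p among the members after Retnla. Its signal was 9.99, 9.79 and 9.88 in non-Tg and 10.15, 11.23 and 9.86 in Tg livers, a difference of 0.53 ± 0.30 (SE; 95% confidence interval -0.14 to 1.20; limma adjusted p = 0.820). Tg 7 fell inside the non-Tg range and Tg 6 stood over 1 log2 unit above all other mice. Csf1r, the receptor for the macrophage growth factor CSF1, stood at 12.83, 12.64 and 12.85 in non-Tg and 12.99, 13.75 and 12.43 in Tg livers (difference 0.28 ± 0.26, SE; limma adjusted p = 0.864). Cd68, a lysosomal membrane glycoprotein, was at 8.82, 8.86 and 8.93 in non-Tg and 8.98, 10.07 and 8.29 in Tg livers. Lyz2, the lysozyme of macrophages and neutrophils, was at 11.31, 11.28 and 11.02 in non-Tg and 11.33, 12.54 and 10.64 in Tg livers. In both genes Tg 5 lay close to the non-Tg mice, Tg 6 above them and Tg 7 below them.

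The 3 chains of complement component C1q are made largely by tissue macrophages and are encoded side by side on chromosome 4. C1qa was at 11.20, 11.04 and 11.07 in non-Tg and 11.28, 12.19 and 10.56 in Tg livers. C1qb was at 11.40, 11.19 and 11.32 in non-Tg and 11.71, 12.12 and 11.17 in Tg livers. C1qc stood at 11.59, 11.34 and 11.53 in non-Tg and 11.95, 12.85 and 10.91 in Tg livers. The order Tg 6, Tg 5, then the non-Tg mice, then Tg 7 was thus shared by all 3 chains on these probe sets. The other C1qb probe sets kept Tg 6 highest and Tg 7 lowest. In them Tg 5, at 10.55 and 9.93, lay below non-Tg 2 and non-Tg 3. The log2 differences were 0.24 ± 0.32, 0.36 ± 0.21 and 0.42 ± 0.38 (SE; limma adjusted p = 0.899, 0.820 and 0.862).

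The promoters of C1qb and C1qc are shown because these neighbouring genes varied together from mouse to mouse; both hold the PU box. The 250 bases before the RefSeq start are given 5′ to 3′ on the minus strand of GRCm38.p6, from chr4:136886201-136886450 for C1qb and chr4:136892915-136893164 for C1qc, with GAGGAA or its reverse complement in capitals.
C1qb: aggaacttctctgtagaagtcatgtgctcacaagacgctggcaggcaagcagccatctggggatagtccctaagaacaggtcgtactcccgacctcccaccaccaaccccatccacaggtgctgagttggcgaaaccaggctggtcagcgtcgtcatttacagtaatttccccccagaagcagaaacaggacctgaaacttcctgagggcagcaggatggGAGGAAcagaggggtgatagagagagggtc
C1qc: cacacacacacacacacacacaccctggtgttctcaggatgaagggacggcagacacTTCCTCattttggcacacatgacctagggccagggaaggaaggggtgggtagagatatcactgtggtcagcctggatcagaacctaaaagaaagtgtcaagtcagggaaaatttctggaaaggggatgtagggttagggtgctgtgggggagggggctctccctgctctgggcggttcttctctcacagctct
The PU box lay at -30 to -25 in C1qb and, on the opposite strand, at -193 to -188 in C1qc. Spi1 itself, the gene for PU.1, was at 7.99, 7.43 and 7.55 in non-Tg and 8.04, 8.63 and 6.87 in Tg livers. Its highest and lowest mice were Tg 6 and Tg 7, as for the C1q chains, and its difference was 0.19 ± 0.41 (SE; limma adjusted p = 0.947). Cd68, whose promoter holds the PU box, and Lyz2, whose promoter does not, were both highest in Tg 6 and lowest in Tg 7. Other members, each by the probe set that stands for it, departed from that order on both sides. With the box, Stat6 was highest in Tg 5, Trem2 in non-Tg 2 and Irf4 in non-Tg 1. Without it, Cybb was lowest in non-Tg 2 and Gpnmb in non-Tg 1. C1qa had no promoter entry. The part of PU.1 in this variation was not tested.

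Tyrobp and Fcer1g encode the adaptor chains through which activating receptors of myeloid cells signal. Tyrobp was at 10.82, 10.55 and 10.57 in non-Tg and 10.83, 11.97 and 9.95 in Tg livers. Fcer1g was at 9.36, 9.33 and 9.64 in non-Tg and 9.73, 10.76 and 8.997 in Tg livers. Both had their highest value in Tg 6 and their lowest in Tg 7, and the differences of 0.27 ± 0.40 and 0.38 ± 0.36 (SE) did not pass (limma adjusted p = 0.909 and 0.865). Mpeg1, a pore-forming protein of phagosomes, differed by 0.40, Ctss, the protease cathepsin S, by 0.27, Cybb, the catalytic subunit of the phagocyte NADPH oxidase, by 0.23, and Fcgr1, the high-affinity IgG receptor, by 0.15. Msr1, the class A scavenger receptor, differed by 0.30, Aif1, the actin-binding protein IBA1, by 0.04, and Cd163, the haemoglobin scavenger receptor, by -0.04. Limma adjusted p for these 7 genes ran from 0.862 to 0.994. Tg 6 was the highest mouse for each of the 7 on the probe set that stands for the gene.

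Trem2 and Gpnmb, which mark lipid-laden macrophages, followed that order less closely: Trem2 had its highest value in non-Tg 2, and Gpnmb had its highest in Tg 6 but its lowest in non-Tg 1. Trem2 was at 5.29, 7.13 and 3.92 in non-Tg and 6.00, 5.78 and 6.40 in Tg livers, close to the filter, with a difference of 0.61 ± 0.83 (SE; limma adjusted p = 0.900). Gpnmb was at 3.03, 3.82 and 6.44 in non-Tg and 4.93, 7.46 and 6.04 in Tg livers. The groups overlapped in both genes. For Gpnmb the difference of 1.71 ± 1.01 (SE; limma adjusted p = 0.855) came from a gene whose mean lay below the filter, with 3 of the 6 signals above it. Itgam, the integrin chain CD11b, was dimmer still, between 3.86 and 5.72 over the 6 mice, and differed by -0.63. The written list of further genes of lipid-associated macrophages had 15 tested genes, 8 higher and 7 lower, with a median of 0.04 and 0 called.

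Alternative activation genes other than Retnla did not pass either. Without the 3 resistin family genes, 5 of the 9 measured members had a higher and 4 a lower mean in Tg livers, with a median log2 difference of 0.07. Mrc1, the mannose receptor, is also abundant on liver sinusoidal endothelium. It was at 11.22, 10.91 and 11.22 in non-Tg and 11.30, 11.66 and 11.09 in Tg livers (difference 0.23 ± 0.16, SE; 95% confidence interval -0.13 to 0.60; limma adjusted p = 0.833). Stat6 was at 10.63, 10.50 and 10.51 in non-Tg and 10.99, 10.67 and 10.41 in Tg livers (difference 0.14 ± 0.16, SE; 95% confidence interval -0.22 to 0.50; limma adjusted p = 0.880). On the probe set that stands for the gene, the highest mouse was Tg 6 for Mrc1 and Tg 5 for Stat6. The groups overlapped in both genes.

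Il4ra, the receptor chain shared by IL-4 and IL-13, stood at 8.88, 8.40 and 8.43 in non-Tg and 8.86, 9.05 and 8.26 in Tg livers and differed by 0.15 ± 0.25 (SE; limma adjusted p = 0.918). Clec10a, a galactose-binding lectin induced by IL-4, was dim and uneven, with 5.17, 6.87 and 5.75 in non-Tg and 6.76, 6.77 and 5.76 in Tg livers (difference 0.50 ± 0.59, SE; limma adjusted p = 0.882). Clec7a, the beta-glucan receptor dectin-1, differed by -0.04, Tgm2, a transglutaminase, by 0.07 and Il10ra, the ligand-binding chain of the IL-10 receptor, by -0.24. Chil3, the chitinase-like protein Ym1 that accompanies Retnla in IL-4-treated macrophages, was between 1.72 and 3.86 over the 6 mice and differed by -0.70 ± 0.98 (SE; limma adjusted p = 0.920). Irf4, a transcription factor of this programme, was at 5.94, 4.37 and 5.14 in non-Tg and 2.88, 3.70 and 4.94 in Tg livers (difference -1.31 ± 0.89, SE; limma adjusted p = 0.864). Both lay below the filter and their groups overlapped.

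A wider written list of IL-4 and IL-13 signalling and alternative activation genes had 21 tested members, 11 higher and 10 lower, with a median of 0.03, and 0 passed over all genes. Unadjusted limma p-values were under 0.05 for 2 of the 21, both with a lower mean in Tg livers, beside 6.05% of all genes tested. Pparg, the nuclear receptor that supports this macrophage state and also lipid storage in hepatocytes, was at 8.80, 8.46 and 8.92 in non-Tg and 7.63, 8.39 and 7.65 in Tg livers, a difference of -0.84 ± 0.26 (SE; limma adjusted p = 0.735) without overlap. Cd36, the fatty acid transporter and scavenger receptor, differed by -0.49 ± 0.21 (SE) with overlapping groups, at a limma adjusted p of 0.807. Arg1, arginase 1, which hepatocytes express for the urea cycle, differed by 0.09 and Mertk, a receptor for dying cells, by 0.23.

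Of the inflammatory genes, Il1b was above the filter. It encodes IL-1 beta and was at 7.36, 6.74 and 6.54 in non-Tg and 7.69, 7.74 and 6.83 in Tg livers, with Tg 5 and Tg 6 above all non-Tg mice and Tg 7 among them. The difference was 0.54 ± 0.37 (SE; 95% confidence interval -0.30 to 1.37; limma adjusted p = 0.832). Tnf was at 3.60, 2.90 and 4.74 in non-Tg and 4.22, 5.95 and 5.11 in Tg livers (difference 1.35 ± 0.89, SE; limma adjusted p = 0.864), and Nos2, inducible nitric oxide synthase, between 2.20 and 4.52 over the 6 mice (difference -0.65 ± 0.99, SE; limma adjusted p = 0.926). A written list of further inflammatory and NF-kB genes had 27 tested members, 18 higher and 9 lower, with a median of 0.31 and 0 called. Tg 6 was the highest mouse for 15 of the 27, against 16.6% of genes above the filter, and the list's median deviation from the other mice was 0.73 in Tg 6 and -0.26 in Tg 7. Its smallest p belonged to Tnfaip3, which encodes the NF-kB inhibitor A20, at 6.23, 6.76 and 6.65 in non-Tg and 7.51, 7.68 and 7.51 in Tg livers. That difference of 1.02 ± 0.31 (SE; limma adjusted p = 0.735) did not pass, although its groups did not overlap.

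**Figure D2:**
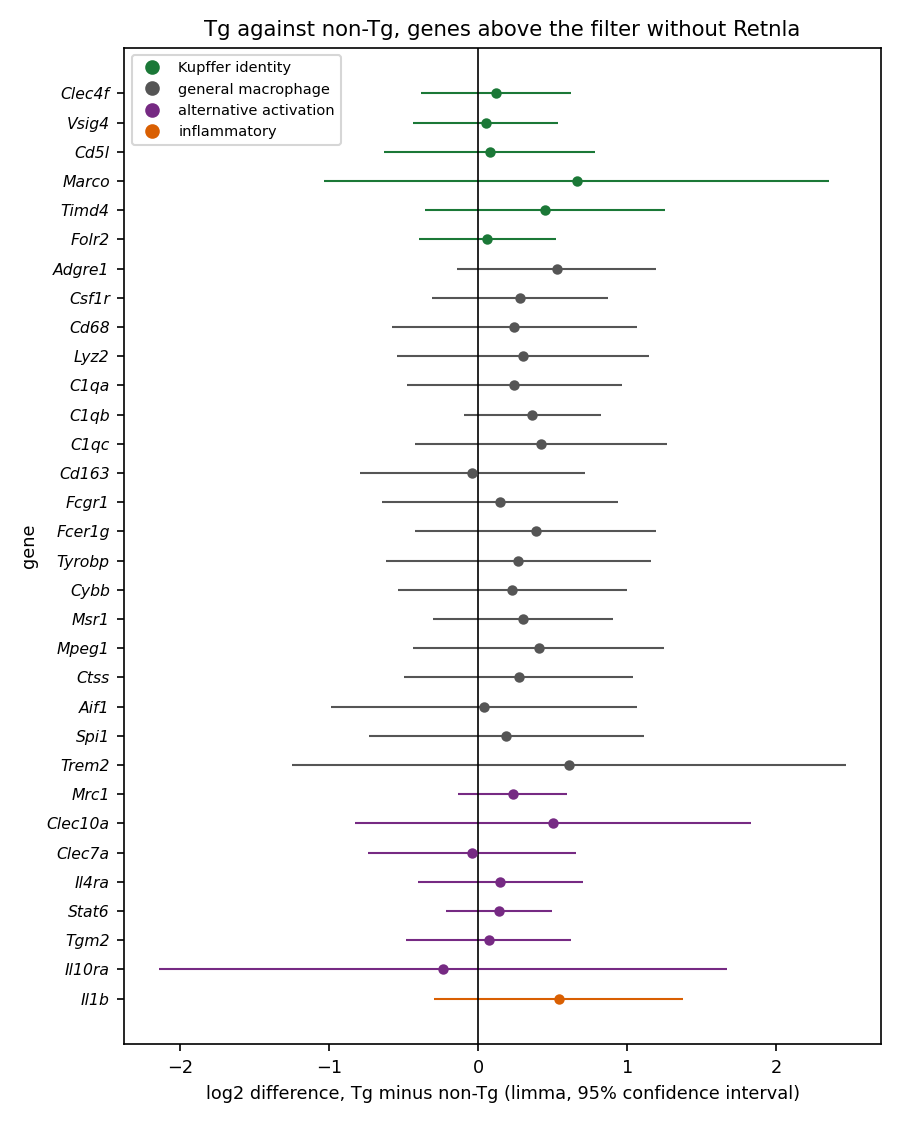
Log2 difference between Tg and non-Tg livers for the 32 members above the filter other than Retnla (points, limma estimate from 3 mice per group; lines, 95% confidence interval; colours, class). All 32 intervals include 0, and the estimates run from -0.24 for Il10ra to 0.66 for Marco.

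Apart from Retnla, what separated the livers most in these genes was the individual mouse within the Tg group. Tg 6 was the highest of the 6 mice for 31 of the 41 measured members, against 16.8% of the 18193 genes, and Tg 7 the lowest for 24 of 41, against 17.0%. Among the 26 Kupffer identity and general macrophage genes Tg 6 was the highest for 25, all but Trem2, and Tg 7 the lowest for 18. In Tg 6 the median of these 26 genes lay 1.18 log2 units above the median of the other 5 mice, and in Tg 7 it lay at -0.48. The other 4 mice stood between -0.15 and 0.08. Over all genes above the filter the same medians were -0.01 for both Tg 6 and Tg 7, on arrays that had been scaled to 1 common level. In bulk liver, a different number of macrophages and a different amount of RNA per macrophage cannot be told apart.

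The spread within the groups differed accordingly. The SD among Tg mice was larger than that among non-Tg mice for 31 of 41 members, against 53.5% of all genes. Over the 32 members above the filter other than Retnla the median SD was 0.74 in Tg and 0.17 in non-Tg mice, beside 0.25 and 0.22 over the 12705 genes. The median half-width of the 95% confidence interval was 0.77 log2 units for these 32 genes and 0.50 for all genes tested, so the fit placed the macrophage genes less precisely than most.

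**Figure D3:**
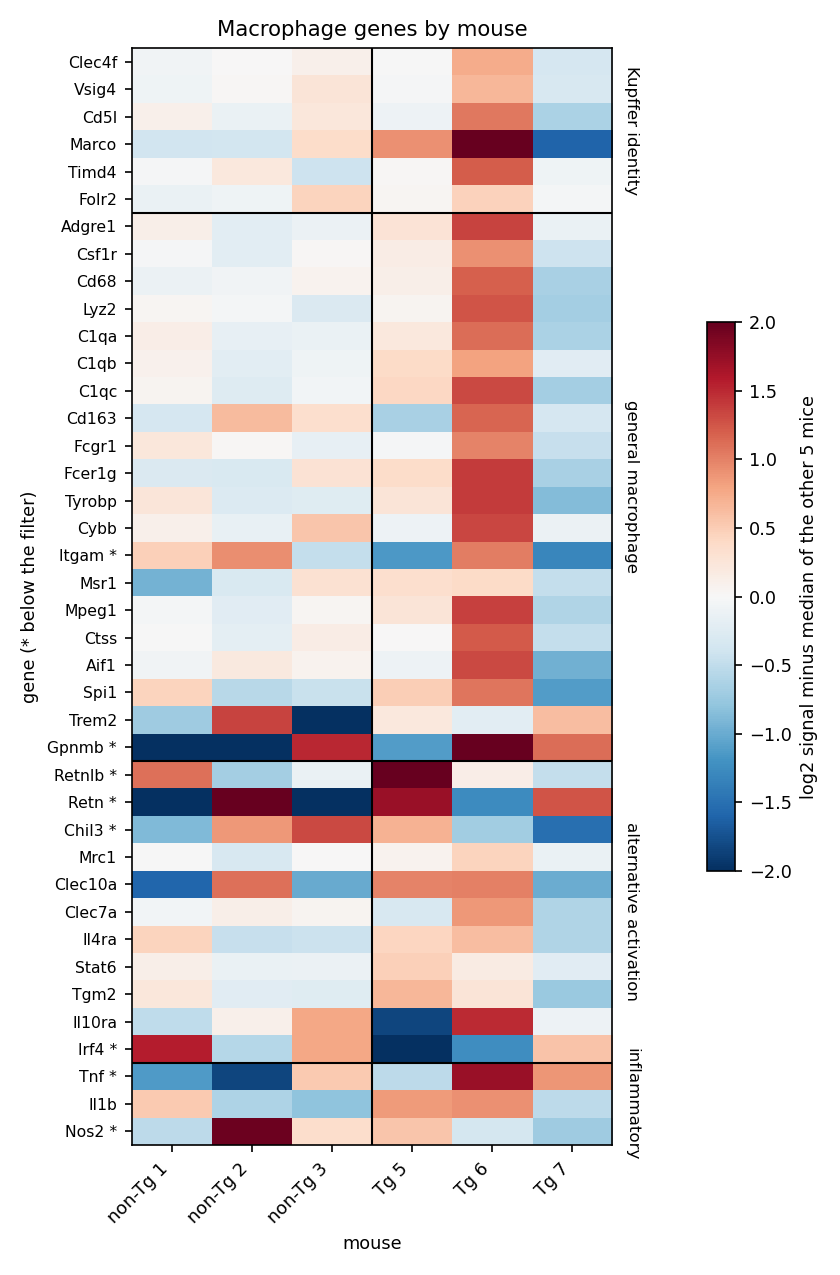
Log2 signal of the 40 measured members other than Retnla in each mouse, as the difference from the median of the other 5 mice (colour scale clipped at -2 and 2; an asterisk marks genes below the filter). The column of Tg 6 is above the other mice for 25 of the 26 Kupffer identity and general macrophage genes, and Tg 7 is mostly below them.

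Leaving out Tg 6, and no other single mouse, turned the direction of the median over the Kupffer identity and general macrophage genes. Without Tg 6, 6 of the 26 Kupffer identity and general macrophage genes had a higher mean in Tg livers and the median log2 difference was -0.19; without Tg 7 it was 25 of 26 and 0.62, and with all mice 24 of 26 and 0.27. Without non-Tg 1, non-Tg 2, non-Tg 3 or Tg 5 the median was 0.30, 0.22, 0.25 and 0.31. Without Tg 7 the groups did not overlap for 19 of 41 members, against 25.4% of all genes. Among them were 13 of the 26 macrophage genes, all higher in Tg 5 and Tg 6, beside 13.8% of all genes on that side. Without Tg 6 the groups did not overlap for 4 members, against 20.4%, namely Retnla, and on the lower side in Tg livers Aif1, Clec7a and Itgam. Without non-Tg 1, non-Tg 2, non-Tg 3 or Tg 5 the count was 3, 5, 4 and 2, against 24.0%, 19.0%, 19.8% and 21.3% of all genes. In each of these fits Retnla was the sole member above the filter to pass. Tg 7 also lay in the other set of arrays by bioC than Tg 5 and Tg 6. Within the set of lower bioC signal (Tg 5 and Tg 6 against non-Tg 1) 25 of the 26 genes were higher in Tg, with a median of 0.59, and within the set of higher signal (Tg 7 against non-Tg 2 and non-Tg 3) 4 of 26, with a median of -0.47. With the sets as a block the class medians were 0.04 for Kupffer identity and 0.10 for general macrophage genes. The part of the array sets in the macrophage differences was not tested.

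Other cell types differed in whether they moved with Tg 6. A written list of further Kupffer cell genes, tested here over 22 genes, lay at a median of 0.78 above the other mice in Tg 6 and -0.30 in Tg 7, and Tg 6 was the highest mouse for 13 of the 22, against the same 16.6%. The highest mouse of the other genes was non-Tg 1 for 4, non-Tg 3 for 2, Tg 5 for 2 and Tg 7 for 1. Chosen after their values were seen, examples of a peak in Tg 6 are Spic, a transcription factor of iron-recycling macrophages, at 7.86 in Tg 6 and 6.36 to 6.71 in the other mice, Clec1b, the receptor CLEC-2, at 11.20 against 10.14 to 10.46, and Slc11a1, a metal transporter of phagosomes, at 10.25 against 8.79 to 9.30. A list of dendritic cell and antigen presentation genes was also high in Tg 6, at a median of 1.05 over 8 genes. Tg 6 was the highest mouse for 5 of the 8, namely H2-Aa, Cd74, H2-Ab1, H2-Eb1 and Bst2. Zbtb46 and Itgae were highest in non-Tg 1 and Siglech in Tg 7. Cd74, the invariant chain of class II molecules, was at 14.12 in Tg 6 and 10.52 to 12.39 in the others. T and NK cell markers stood at 0.85 over 8 genes in Tg 6 and 0.67 in Tg 5, monocyte markers at 0.41 over 9, B cell markers at 0.36 over 7 and neutrophil markers at 0.09 over 7. Liver sinusoidal endothelial markers were likewise at 0.09 over 14 genes and hepatocyte markers at -0.04 over 12. In Tg 7 the medians were -0.56 for dendritic cell, -0.43 for monocyte, -1.03 for neutrophil, -0.70 for B cell and -0.09 for T and NK cell markers. The part of these other blood cells in the macrophage values was not tested.

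**Figure D4:**
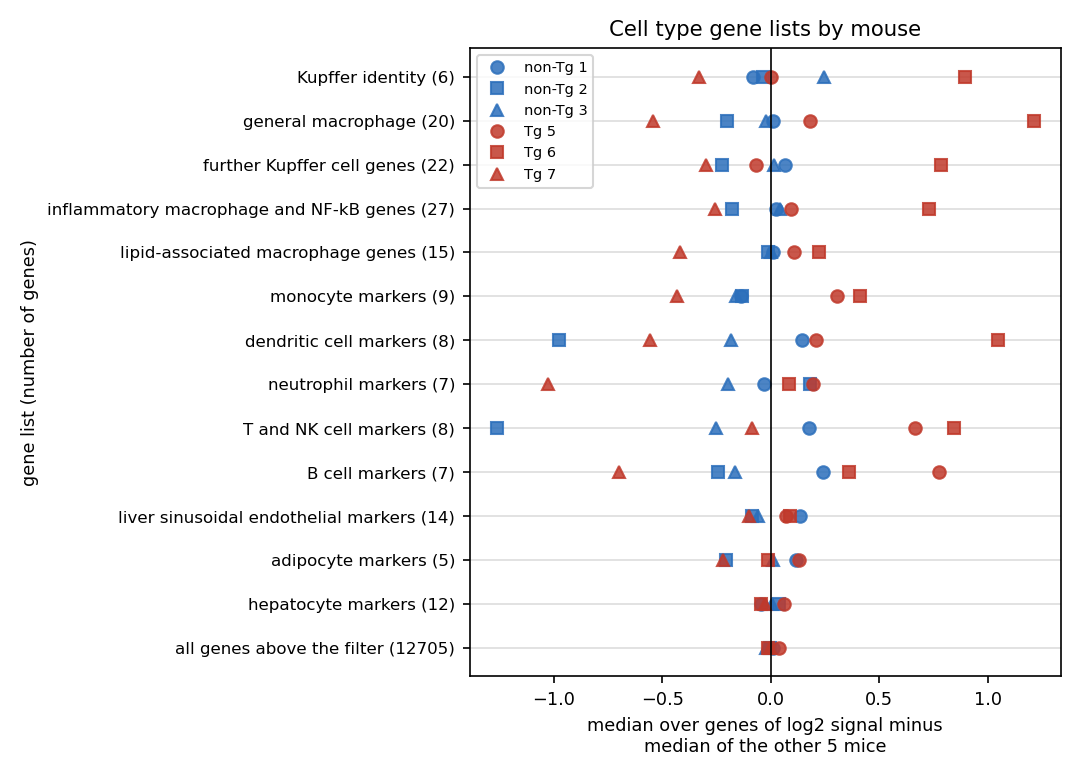
Median over the genes of each list of the log2 signal minus the median of the other 5 mice, for each mouse (points; red Tg, blue non-Tg; number of genes in brackets). Tg 6 stands at 0.89 for Kupffer identity and 1.21 for general macrophage genes but at 0.09 for sinusoidal endothelial and -0.04 for hepatocyte markers.

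Between the groups, none of the tested genes in these lists passed over all genes. The further Kupffer list had 15 higher and 7 lower genes, a median of 0.27, and 6 genes, 4 higher and 2 lower, at an unadjusted limma p under 0.05, beside 6.05% of all genes tested. C6, a terminal complement component that hepatocytes make as well, was at 13.03, 12.83 and 12.65 in non-Tg and 13.49, 13.28 and 13.39 in Tg livers, a difference of 0.55 ± 0.11 (SE; limma adjusted p = 0.432). It did not peak in Tg 6. Hpgd, which inactivates prostaglandins, differed by -0.53 ± 0.17 (SE) and Paqr9 by -0.40 ± 0.12 (SE), each with a limma adjusted p of 0.735, and Vcam1, an adhesion molecule of Kupffer cells and endothelium, by 1.23 ± 0.47 (SE; limma adjusted p = 0.787). Monocyte markers had a median difference of 0.27 with 8 of 9 higher, dendritic cell markers 0.67 with 7 of 8, T and NK cell markers 1.06 with 7 of 8, B cell markers 0.12 with 5 of 7, neutrophil markers 0.10 with 4 of 7, sinusoidal endothelial markers 0.06 with 9 of 14 and hepatocyte markers 0.0045 with 7 of 12. In the T and NK cell and dendritic cell lists non-Tg 2 also stood apart, as the lowest mouse for 6 of 8 and 5 of 8 genes with median deviations of -1.26 and -0.97, and its part in those differences was not tested. All of these median differences stand beside a median of 0.01 over the 12705 genes. Unadjusted limma p was under 0.05 for 2 T and NK cell genes, Gzma (1.39 ± 0.53, SE) and Il2rb (0.99 ± 0.41, SE). The same held for Tat of the hepatocyte list (1.12 ± 0.24, SE, limma adjusted p = 0.468). It also held, with a lower mean in Tg livers, for Fn1 of the monocyte and Mmp9 of the neutrophil list. Dendritic cell, B cell and sinusoidal endothelial lists held no such gene, beside 6.05% of genes tested.

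Further probe sets above the filter were at hand for 9 members, and their sign was compared. Of the 41 members, 13 had several probe sets, and 17 other probe sets of these 9 genes lay above the filter. Of these, 13 had the sign of the probe set that stands for the gene. The 4 that did not were 3 of Tgm2, at -0.19, -0.24 and -0.22 beside 0.07, and 1 of Msr1, at -0.11 beside 0.30. Both other Csf1r probe sets had their highest mouse in Tg 6, at 11.91 and 11.88, and their lowest in Tg 7, at 10.44 and 10.15. Other probe sets of Cybb, C1qb and Marco also peaked in Tg 6. The other Fcgr1 probe set was highest in Tg 7, at 7.47 against 7.36 in Tg 6. Other Msr1 probe sets were highest in Tg 5 (7.65 against 7.53 in Tg 6), in non-Tg 2 (6.70 against 6.57) and in Tg 6 (8.36). For Il4ra another probe set peaked in Tg 5, at 8.34 against 7.80 in Tg 6. The other Stat6 probe set was highest in Tg 6, at 9.48 against 9.46 in Tg 5, and differed by 0.31. The second Marco probe set differed by 0.96 and a second Il4ra probe set by 1.63, the latter with 1 low non-Tg value of 3.34. Lyz2 and Chil3 belong to families of similar genes whose transcripts a probe set can share.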

How the data were processed

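Liver RNA of 6 mice was measured on 1 Affymetrix array each, with 5 µg of total RNA labelled for each. The values are the authors' deposited log2 signals from GCOS, per the submitters' processing notes, and its version, algorithm and scaling are not stated in any source used here. On the linear scale the trimmed mean (2% off each end) was 500.0 for every array. Control probe sets (64 of 45101) were set aside, and 34945 probe sets with exactly 1 symbol were used. Probe sets above the 40th percentile of mean signal were kept, a gene took its brightest probe set by mean, and Tg was compared with non-Tg over 12705 genes with limma 3.58.1 (R 4.3.3), trended eBayes after lmFit, 2-sided, Benjamini-Hochberg adjusted. SEs are moderated, with 9.61 degrees of freedom.

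The members, the 12 further lists and all tests were chosen with earlier results of these data known, so nothing here is independent of them. Named genes are all members and, from each list, up to 4 by smallest p, plus the 5 genes on each side of Retnla. Spic, Clec1b, Slc11a1, Slc40a1, Ccl24, H2-Eb1, Bst2, Zbtb46 and Itgae were added after their values were seen. The bioC split was known from earlier results. No list was tested as a set. The labels give each array as an individual sample, the mouse being the replicate. The procedure was tested on simulated data with independent genes and planted shifts of 4 log2 units. Every member difference other than that of Retnla was smaller, and the members vary together. The simulation therefore does not give the power for these comparisons. Promoters are from RefSeq (GRCm38.p6). Figures used matplotlib 3.10.9.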

Additional observations from a re-analysis of the deposited data

How the results depend on the processing

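Retnla passed under all 18 alternatives, with a log2 difference from 8.62 to 9.74 and a limma adjusted p of at most 0.00275. No other of the 33 members above the filter passed under any of them, the lowest limma adjusted p being 0.397. The 8 members below the filter were left out of these checks of single members. The count of genes past the threshold, 2 in the reported fit, was 6 when filtered at the 20th percentile, 4 and 6 with 16 and 64 added before the log, 5 with arrays centred on the median, 4 with robust variance and 4 with the bioC sets blocked, and 2 to 3 without single mice. Members without overlap between groups, 1 in the reported comparison, were 2 to 19 without single mice, in a smaller design where overlap is less likely for every gene. Centring on the median turned the sign of Vsig4 (-0.023), Folr2 (-0.015), Aif1 (-0.036) and Tgm2 (-0.0054). Blocking on the bioC sets turned the sign of Vsig4 (-0.019), Cd5l (-0.10), Fcgr1 (-0.056), Tyrobp (-0.017), Aif1 (-0.20), Spi1 (-0.14), Il4ra (-0.045) and Tgm2 (-0.13). Array weighting turned the sign of Cd163 (0.083) and Clec7a (0.11). Averaging probe sets turned the sign of Tgm2 (-0.083). Adding 64 turned the sign of Il10ra (0.012). Leaving out single mice turned the sign of 25 of the 33 members above the filter. Their ranges were Clec4f -0.18 to 0.35, Vsig4 -0.22 to 0.26, Cd5l -0.37 to 0.43, Marco -0.27 to 1.66, Folr2 -0.084 to 0.23, Csf1r -0.065 to 0.59, Cd68 -0.24 to 0.65, Lyz2 -0.22 to 0.73 and C1qa -0.18 to 0.63. Further ranges were C1qc -0.054 to 0.92, Cd163 -0.48 to 0.26, Fcgr1 -0.26 to 0.46, Fcer1g -0.081 to 0.80, Tyrobp -0.26 to 0.75, Cybb -0.22 to 0.46, Mpeg1 -0.10 to 0.86, Ctss -0.21 to 0.63 and Aif1 -0.56 to 0.55. Further ranges were Spi1 -0.20 to 0.68, Trem2 -0.15 to 1.45, Clec7a -0.47 to 0.24, Il4ra -0.015 to 0.38, Stat6 -0.0095 to 0.28, Tgm2 -0.20 to 0.39 and Il10ra -1.02 to 0.59. The cause was not tested. No paired analysis was possible because the replicate numbers of the groups do not match. With 3 mice per group, a member that did not pass is not shown to be unchanged.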

Other observations

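Genes next to Retnla on chromosome 16 were read to see whether they differ with it. Of the 5 nearest measured genes on each side, 5 of 10 lay above the filter and 0 passed. Retnlb and Trat1 on one side differed by 0.55 and -0.49, and Dzip3 on the other by 0.37. Cip2a, below the filter, differed by -2.48 ± 0.81 (SE; limma adjusted p = 0.785) without overlap between groups.

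Slc40a1, which encodes the iron exporter ferroportin of Kupffer cells and other cells, was at 13.14, 13.23 and 13.33 in non-Tg and 13.14, 13.13 and 12.70 in Tg livers, and it did not peak in Tg 6. Its difference of -0.24 ± 0.13 (SE; limma adjusted p = 0.820) did not pass. Ccl24, a chemokine of alternatively activated macrophages, was at 6.42, 4.90 and 7.93 in non-Tg and 5.78, 8.46 and 7.69 in Tg livers, with overlapping groups and a difference of 0.89 ± 0.83 (SE; limma adjusted p = 0.863). Both genes were chosen for mention because their symbols resemble the 2 names without a probe set.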
